A study of Mus musculus with 6 samples.

Results

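The cortical machinery that orients the mitotic spindle was followed through 10 of its genes in mammary epithelium with and without the kinase gene Plk2: Gpsm2, Gpsm1, Numa1, Insc, Gnai1, Gnai2, Gnai3, Dync1h1, Dctn1 and Pafah1b1. The genes were taken from a list, and every gene probe whose transcript accession belongs to one of them was used. This gave 11 probes on 20 spots of each array, and all 10 genes were measured, out of 14416 named genes tested. Glands of female mice aged 8 weeks had been dissociated to give primary mammary epithelial cells. The first group held 3 samples labelled Plk2 -/- and the second 3 samples labelled wild type, all of strain 129sv/C57Bl6, each hybridised to its own Agilent array in 1 colour (Cy3). Plk2 is a polo-like serine/threonine kinase. The labels give neither the deleted part of the gene nor whether a sample came from 1 animal. The p-values therefore test group differences against variation between these samples, which may not be variation between animals.

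A dividing epithelial cell sets the plane of its division by pulling on the astral microtubules of its spindle from the cell cortex. The inhibitory G protein alpha subunits encoded by Gnai1, Gnai2 and Gnai3 are anchored in the membrane and bind LGN, the product of Gpsm2, which in turn binds NuMA, the product of Numa1. NuMA recruits the motor dynein (heavy chain Dync1h1) with its partner dynactin (largest subunit Dctn1) and the dynein regulator LIS1 (Pafah1b1). Gpsm1 encodes AGS3, a paralogue of LGN, and Insc encodes the adaptor Inscuteable, which links LGN to the Par polarity complex. Planar and perpendicular divisions are known to build the layered epithelia of skin and mammary gland.

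Levels are log2 processed signals relative to the 75th percentile of the gene spots of the same array, so that a level of 1 is a brightness of 2 times that percentile, and differences are Plk2 null minus wild type. Levels of different genes come from different probes and are not set against each other. Between 52.8% and 56.2% of gene spots were well above background on the null arrays, against 51.8% to 53.8% on the wild-type arrays. The Plk2 probe gave signals of 2.44, 1.93 and 1.87 in null samples 1, 2 and 3, none well above background, against 1169, 1160 and 1472 in wild-type samples 1, 2 and 3. By the bound that background sets, null cells had at least 134.6-fold less Plk2 signal (limma, adjusted p = 3.66e-06); whether the probe lies in the deleted part is not known here. All 6 arrays lay on 1 slide, the null arrays in row 2 and the wild-type arrays in row 1. The effect of the row and that of the genotype cannot be told apart.

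None of the 10 genes passed the test in null cells (limma with Benjamini-Hochberg adjustment over 24611 entries, adjusted p under 0.05), where 0.553% of all entries passed, 0.219% higher and 0.333% lower. At an unadjusted p under 0.05 there was 1 gene, Gpsm2, higher in null cells, against 22.7% of all entries, 13.1% higher and 9.64% lower. The null and wild-type samples did not overlap for 3 of the 10 genes, Gpsm2 and Gnai1 with higher and Gnai2 with lower null values, against 31.2% of all entries, 19.1% higher and 12.1% lower. Both shares lie near or below those of all entries. The differences were positive for 4 genes and negative for 6, with a median of -0.081, and the median over all entries was 0.026. The median size of the difference, whatever its sign, was 0.23 over the 10 genes and 0.28 over all entries. All 10 probes used were well above background on all 6 arrays, so that the filter on dim probes took no part in which genes were measured.

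**Figure D1:**
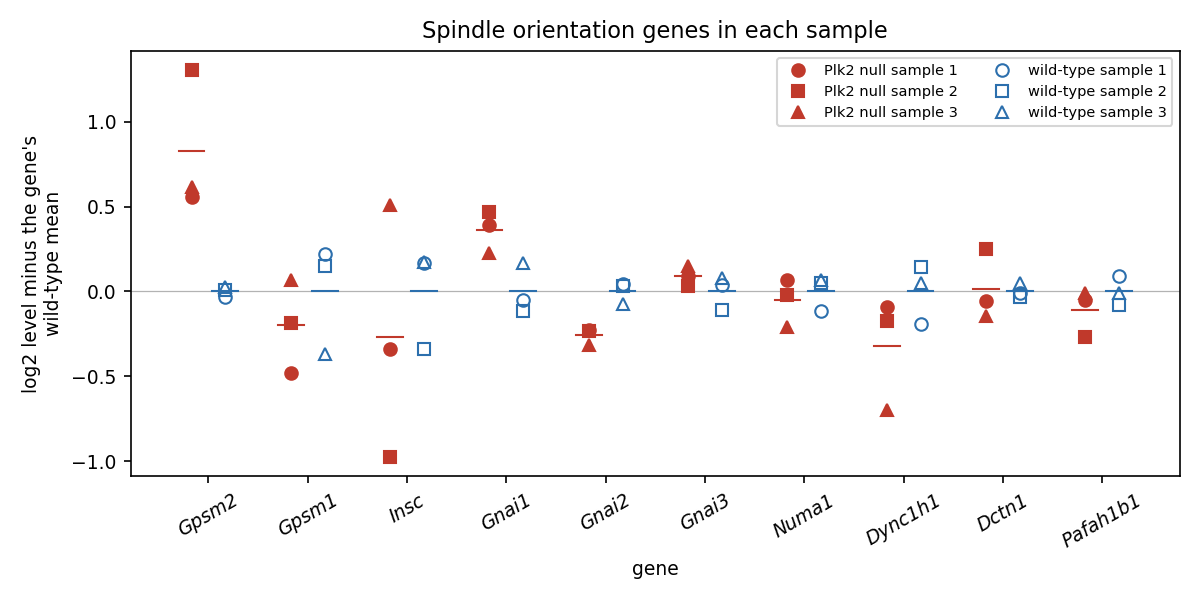
Log2 level of each gene (y axis, relative to that gene's wild-type mean) in each sample, Plk2 null samples as filled symbols on the left and wild-type samples as open symbols on the right of each gene, with short lines at the group means. Null samples lie apart from wild-type samples for Gpsm2 (mean difference 0.83), Gnai1 (0.36) and Gnai2 (-0.26), and the groups overlap for the other 7 genes.

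Gpsm2, the gene of LGN, had the largest difference of the 10. Its level was 0.51, 1.25 and 0.57 in null samples 1, 2 and 3, against -0.086, -0.041 and -0.024 in wild-type samples 1, 2 and 3. Every null sample stood above every wild-type sample, and null sample 2 stood above the other null samples. The mean was 0.78 ± 0.42 in null cells and -0.050 ± 0.032 in wild-type cells (SD, n = 3 each). This is a difference of 0.83 (SE 0.22, 95% interval 0.29 to 1.36), or 1.77-fold, and it did not pass the threshold (limma, adjusted p = 0.11, unadjusted p = 0.00849). The difference was 0.59 without null sample 2 (limma, adjusted p = 0.194). Over 18 alternative settings it stayed positive, between 0.59 and 1.12, with limma adjusted p-values from 0.0611 to 0.281.

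The Gpsm2 probe was printed on 10 spots of each array, so its spread between spots of 1 array could be seen directly. On the null arrays the used spots ran from 0.46 to 0.58 in sample 1, from 1.21 to 1.29 in sample 2 and from 0.44 to 0.63 in sample 3. On the wild-type arrays they ran from -0.22 to 0.056 in sample 1, from -0.19 to 0.089 in sample 2 and from -0.16 to 0.13 in sample 3. The lowest used null spot, at 0.44, thus lay above the highest wild-type spot, at 0.13. The SD between spots of 1 array was between 0.031 and 0.10, against an SD of 0.42 between the means of the 3 null samples. In wild-type cells the SD between the 3 sample means was 0.032, below the SD between spots of each wild-type array (0.081 to 0.10). The spots of 1 array repeat 1 sample on that array, so their SD covers error between spots alone, and not error between arrays. The scanner software had marked 4 of the 60 spot values as outliers, 2 each in null samples 1 and 2, and these were left out. With them kept, the difference was 0.81.

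**Figure D2:**
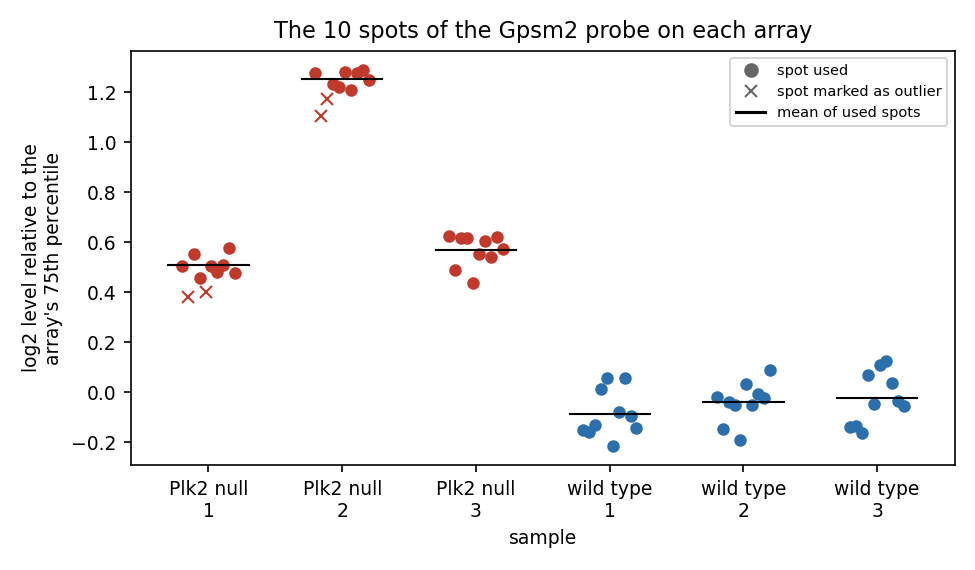
The 10 spots of the Gpsm2 probe on each array, 3 Plk2 null arrays on the left and 3 wild-type arrays on the right, as log2 level relative to the array's 75th percentile. Circles are spots used, crosses the 4 spots marked as outliers, and lines the means of the used spots; all null spots lie above all wild-type spots, and null sample 2 lies highest with a mean of 1.25.

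In the authors' deposited table each of the 10 Gpsm2 spots has a row of its own. By that table's signed fold of null over wild type, the rows ran from 1.55 to 1.77, all higher in null cells. Of the 10 rows in the authors' deposited table, 1 met the p threshold of 0.01 together with the fold threshold of 1.4, and 8 had an unadjusted p under 0.05. The p-values that the authors' deposited table gives for this 1 probe ran from 0.00786 to 0.0812.

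The region upstream of Gpsm2 is shown because Gpsm2 had the largest difference, together with that of Gnai1, the other gene higher in every null sample than in any wild-type sample. Each sequence is the 250 bases before the annotated start, read 5′ to 3′ along the gene, from RefSeq on GRCm38.p6. Capitals mark matches, on either strand, to CCAAT (the core of the site of the factor NF-Y), TTTGAA and TTCGAA (forms of the cell cycle genes homology region, CHR, through which many mitotic genes are regulated) and GGGCGG (a GC box). The Gpsm2 region is chr3:108722300-108722549 and the Gnai1 region chr5:18360414-18360663, both on the minus strand.
Gpsm2: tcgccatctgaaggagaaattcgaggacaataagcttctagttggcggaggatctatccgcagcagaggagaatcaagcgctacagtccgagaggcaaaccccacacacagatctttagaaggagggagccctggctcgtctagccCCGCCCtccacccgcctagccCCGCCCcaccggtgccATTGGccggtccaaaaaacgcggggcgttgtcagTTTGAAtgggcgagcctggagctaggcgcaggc
Gnai1: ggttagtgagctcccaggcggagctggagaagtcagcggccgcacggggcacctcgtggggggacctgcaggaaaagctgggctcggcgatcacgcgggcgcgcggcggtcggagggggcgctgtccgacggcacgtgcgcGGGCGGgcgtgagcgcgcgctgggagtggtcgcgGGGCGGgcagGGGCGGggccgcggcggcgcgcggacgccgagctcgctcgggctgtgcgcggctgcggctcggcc

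The Gpsm2 region holds CCAAT on the opposite strand, 67 to 63 bases before the start, and TTTGAA on the gene's strand, 33 to 28 bases before it. It also holds 2 GC boxes, both on the opposite strand. The Gnai1 region holds 3 GC boxes and no match to the other motifs. Of the 32851 regions of this length in the table, 33.8% hold CCAAT, 16.0% TTTGAA, 1.34% TTCGAA and 32.7% GGGCGG, and 5.55% hold both CCAAT and TTTGAA. Regions were listed for 9 of the 10 genes, 13 in all, and 1 of these 13, that of Gpsm2, holds both CCAAT and TTTGAA. Of the 19 regions of the 18 genes listed from a set of 20 mitosis genes, 6 hold both. A match says only that these letters stand in the window.

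Among tested genes with a symbol, those whose levels followed Gpsm2 most closely across the 6 arrays were Phgdh (Pearson r = 0.998), a serine synthesis enzyme gene, Arxes2 (0.995), Cfap410 (0.995), a cilium gene, Smc2 (0.994), a condensin subunit gene, and Rad18 (0.993), a ubiquitin ligase gene of DNA repair. These are descriptions over 6 arrays that share the same scaling and the same 2 groups. Their differences were 0.84 for Phgdh, 0.95 for Arxes2, 0.82 for Cfap410, 1.42 for Smc2 and 0.85 for Rad18, and none passed the threshold (limma, adjusted p from 0.0884 to 0.137).

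Gpsm1 encodes AGS3, the paralogue of LGN. Its level was -2.13, -1.83 and -1.58 in null samples 1, 2 and 3, against -1.43, -1.50 and -2.02 in wild-type samples 1, 2 and 3. The groups overlapped, and the difference was -0.20 (SE 0.23, 95% interval -0.74 to 0.34; limma, adjusted p = 0.626). It was -0.060 without null sample 1, -0.091 without wild-type sample 1, -0.13 without wild-type sample 2, -0.33 without null sample 3 and -0.38 without wild-type sample 3. Its single probe is annotated to 1 of several Gpsm1 transcripts. Insc, the adaptor between LGN and the Par complex, had a level of -2.88, -3.52 and -2.03 in null samples 1, 2 and 3, against -2.38, -2.88 and -2.37 in wild-type samples 1, 2 and 3. Null samples held both its lowest and its highest value, with an SD of 0.75 in null cells and 0.29 in wild-type cells (n = 3 each). The difference in Insc was -0.27 (SE 0.38, 95% interval -1.17 to 0.64; limma, adjusted p = 0.7), and it was 0.085 without null sample 2. The Insc signals were dim, 25.1 to 58.9 on null arrays and 34.0 to 54.7 on wild-type arrays.

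Of the 3 G protein subunit genes, none passed the threshold. Gnai1 had a level of 0.14, 0.23 and -0.016 in null samples 1, 2 and 3, against -0.30, -0.36 and -0.077 in wild-type samples 1, 2 and 3. Every null sample stood above every wild-type sample, null sample 3 and wild-type sample 3 being the closest. The means were 0.12 ± 0.12 in null cells and -0.25 ± 0.15 in wild-type cells (SD, n = 3 each), a difference of 0.36 (SE 0.15, 95% interval -0.0018 to 0.73; limma, adjusted p = 0.222). It stayed positive, between 0.30 and 0.65, over 18 alternative settings.

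Gnai2 had a level of 3.98, 3.98 and 3.90 in null samples 1, 2 and 3, against 4.25, 4.25 and 4.14 in wild-type samples 1, 2 and 3. Every null sample was below every wild-type sample. The means were 3.95 ± 0.049 in null cells and 4.21 ± 0.065 in wild-type cells (SD, n = 3 each), a difference of -0.26 (SE 0.13, 95% interval -0.57 to 0.054; limma, adjusted p = 0.29). Its sign turned to 0.030 when arrays were scaled on spike-in controls. Gnai3 had a level of 5.09, 5.02 and 5.14 in null samples 1, 2 and 3, against 5.03, 4.88 and 5.07 in wild-type samples 1, 2 and 3. The groups overlapped, with a difference of 0.090 (SE 0.14, 95% interval -0.23 to 0.42; limma, adjusted p = 0.718), and it was 0.035 without wild-type sample 2. In the authors' deposited table the signed folds of null over wild type were 1.28 for Gnai1 (unadjusted p = 0.00227), -1.25 for Gnai2 (p = 0.0386) and 1.11 for Gnai3 (p = 0.0440).

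Ratios of paralogues within an array do not depend on the value an array is centred on, and 4 pairs were compared. The log2 ratio of Gpsm2 over Gpsm1 was 2.64, 3.09 and 2.15 in null samples 1, 2 and 3, against 1.34, 1.46 and 1.99 in wild-type samples 1, 2 and 3. The null samples were higher in 3 of 3, by a mean of 1.03 (exact permutation test, two-sided, p = 0.1, which is the smallest that 3 samples against 3 allow; 0.133 adjusted over the 4 pairs). The log2 ratio of Gnai1 over Gnai2 was -3.84, -3.75 and -3.91 in null samples 1, 2 and 3, against -4.55, -4.61 and -4.21 in wild-type samples 1, 2 and 3. It was higher in all 3 null samples, by 0.62 or 1.54-fold (exact permutation p = 0.1; adjusted p = 0.133). The ratio of Gnai2 over Gnai3 was lower in all 3 null samples, by a mean difference of -0.35 (exact permutation p = 0.1; adjusted p = 0.133). For Gnai1 over Gnai3 the samples overlapped and the mean difference was 0.27 (exact permutation p = 0.2; adjusted p = 0.2), and 0.10 with normexp background correction. No pair could pass the threshold at this number of samples. The ratio of Gnai1 over Gnai2 kept a positive difference, 0.55 to 0.74, whichever sample was left out. A ratio shows unequal change and not which partner moved.

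**Figure D3:**
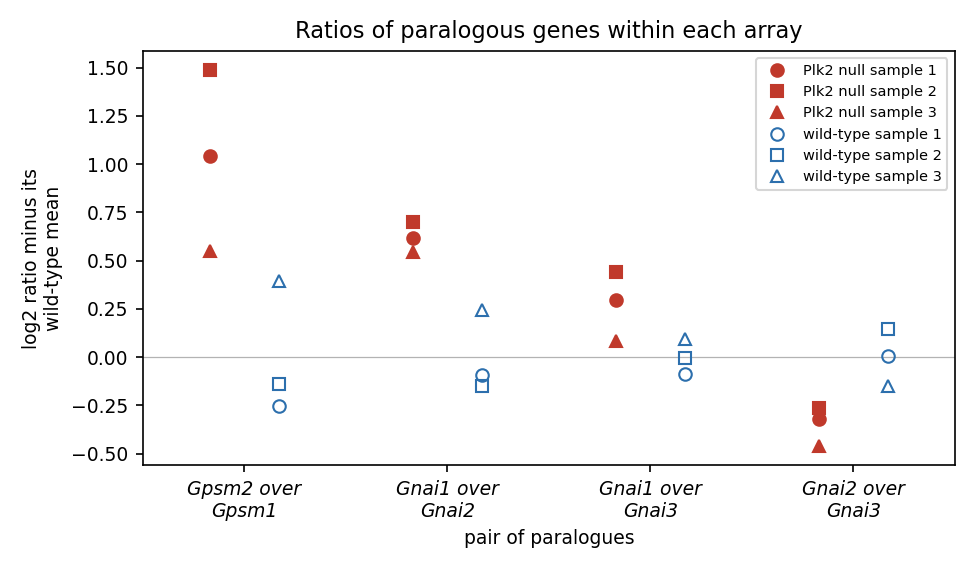
Log2 ratio of paralogous genes within each array (y axis, relative to the wild-type mean of that ratio) for 4 pairs, Plk2 null samples as filled symbols on the left and wild-type samples as open symbols on the right of each pair. The null samples lie above the wild-type samples for Gpsm2 over Gpsm1 (mean difference 1.03) and Gnai1 over Gnai2 (0.62), below them for Gnai2 over Gnai3 (-0.35), and overlap them for Gnai1 over Gnai3 (0.27).

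Numa1, whose product ties LGN to dynein, had a level of 5.42, 5.33 and 5.15 in null samples 1, 2 and 3, against 5.24, 5.41 and 5.42 in wild-type samples 1, 2 and 3. The groups overlapped, and the difference was -0.053 (SE 0.15, 95% interval -0.41 to 0.30; limma, adjusted p = 0.852). Dync1h1, the motor subunit of dynein, had a level of 4.70, 4.61 and 4.09 in null samples 1, 2 and 3, against 4.60, 4.94 and 4.84 in wild-type samples 1, 2 and 3. Null sample 3 was the lowest of the 6, and the other null samples lay within the wild-type range. The difference was -0.32 (SE 0.21, 95% interval -0.82 to 0.18; limma, adjusted p = 0.397), and -0.13 without null sample 3. It was negative in all 18 alternative settings, the smallest being -0.032 with spike-in scaling.

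Dctn1, the dynactin subunit that binds dynein and microtubules, had a level of 5.21, 5.52 and 5.13 in null samples 1, 2 and 3, against 5.26, 5.24 and 5.32 in wild-type samples 1, 2 and 3. The wild-type values lay between the null values, and the difference was 0.015 (SE 0.16, 95% interval -0.36 to 0.39; limma, adjusted p = 0.964). Its sign changed between settings, for example to -0.10 without null sample 2. Pafah1b1, the gene of LIS1, had 2 probes. The brighter one read 4.999, 4.78 and 5.04 in null samples 1, 2 and 3, against 5.14, 4.97 and 5.04 in wild-type samples 1, 2 and 3, a difference of -0.11 (SE 0.15, 95% interval -0.46 to 0.24; limma, adjusted p = 0.682). It was -0.029 without null sample 2 and -0.065 without wild-type sample 1. The other Pafah1b1 probe gave -0.074 (SE 0.15; limma fit of all 29012 kept probes, adjusted p = 0.797), so both probes lay near 0 with overlapping groups.

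Each 95% interval covers 1 gene under the main scaling, without adjustment for the number of entries. An interval is thus not the test behind the calls: that of Gpsm2 lay above 0, and Gpsm2 did not pass the threshold. For Numa1, Dctn1, Pafah1b1 and Gnai3, the lowest limit was -0.46, for Pafah1b1, and the highest 0.42, for Gnai3. The intervals ran from -0.74 to 0.34 for Gpsm1, from -0.82 to 0.18 for Dync1h1 and from -1.17 to 0.64 for Insc. They ran from -0.0018 to 0.73 for Gnai1 and from -0.57 to 0.054 for Gnai2. Spike-in controls had a mean level of 2.83, 3.05 and 3.42 in null samples 1, 2 and 3. In wild-type samples 1, 2 and 3 it was 3.46, 3.40 and 3.29, so null sample 3 lay within the wild-type range. Scaling on spike-in controls moved the median of all entries to 0.32, from 0.026 by the main scaling. Under it the 10 genes had a median of 0.21, and Gpsm1, Insc, Gnai2, Numa1 and Pafah1b1 turned to 0.089, 0.021, 0.030, 0.24 and 0.18, none past the threshold (limma, adjusted p from 0.605 to 0.977).

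**Figure D4:**
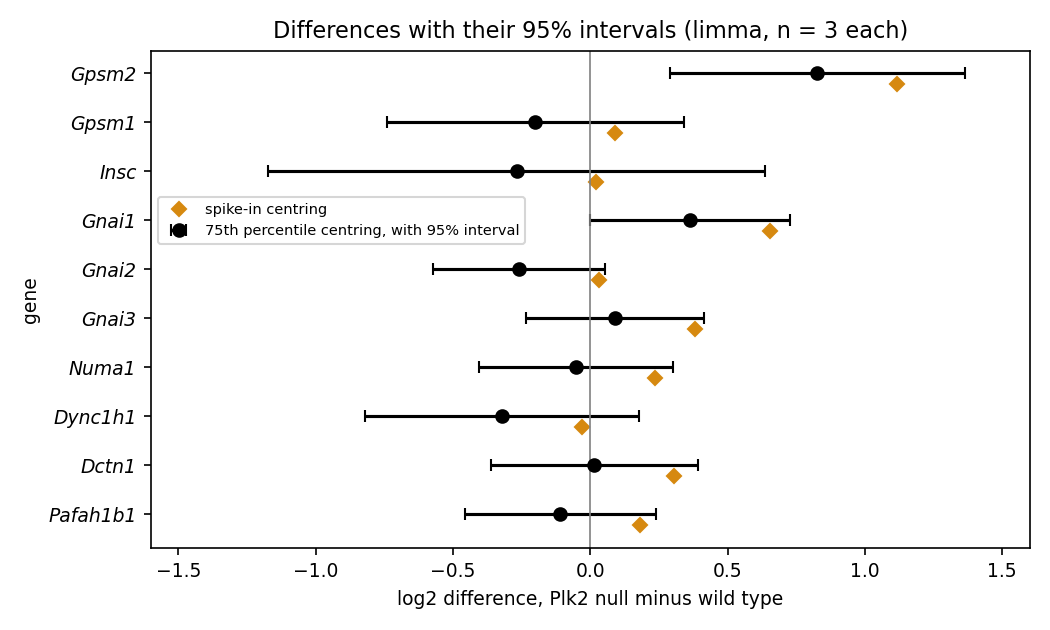
Log2 difference of each gene (x axis, Plk2 null minus wild type), as black points with their 95% limma intervals under the main scaling and as orange diamonds under spike-in scaling. The interval lies above 0 for Gpsm2 alone (0.29 to 1.36). Spike-in scaling moves every gene to the right by the same amount, about that by which it moves the median of all entries.

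Further genes of the same machinery were described from lists. Of 30 other dynein, dynactin and LIS1 cofactor genes, 29 were tested, 22 with a positive and 7 with a negative difference (52.4% of all entries were positive), and 0 passed the threshold (limma). At an unadjusted p under 0.05 there were 3 higher and 0 lower of 29, a smaller share than the 22.7% of all entries. The list's median was 0.11, against 0.026 over all entries, and 0.20 without null sample 1. Spdl1, encoding Spindly, which brings dynein to kinetochores, was not well above background in any wild-type sample, while all 3 null samples were, which puts null cells at least 2.33-fold above wild-type cells (measured means -3.42 in null and -5.36 in wild-type cells; limma, adjusted p = 0.0916). Spdl1 passed the filter on dim probes through the null arrays alone, so it had to differ, and its place among the 3 supports nothing about the list. Dynll2, a dynein light chain gene, differed by 0.63 (SE 0.15; limma, adjusted p = 0.0956), its levels being 3.12, 3.42 and 3.08 in null samples 1, 2 and 3, against 2.60, 2.63 and 2.52 in wild-type samples 1, 2 and 3. Hook1, an adaptor between dynein and cargo, differed by 0.61 (SE 0.22; limma, adjusted p = 0.174) and Actr10, a dynactin subunit gene, by 0.42 (SE 0.18; limma, adjusted p = 0.224).

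Of 28 genes for cortical anchors and G protein regulators, 26 were tested, 11 positive and 15 negative, with a median of -0.040, and 0 passed the threshold (limma). At an unadjusted p under 0.05 there were 2 higher and 3 lower of 26, no larger a share than the 22.7% of all entries. The genes named next are those of smallest p in the list. The kinase gene Stk10, whose product phosphorylates the cortical ERM proteins, differed by -0.58 (SE 0.14; limma, adjusted p = 0.0951), with levels of 1.80, 1.58 and 1.74 in null samples 1, 2 and 3, against 2.19, 2.30 and 2.37 in wild-type samples 1, 2 and 3. Msn, encoding the ERM protein moesin, differed by -0.49 (SE 0.19; limma, adjusted p = 0.184). Gnao1, another G protein alpha subunit gene, differed by -0.47 (SE 0.16; limma, adjusted p = 0.162). The planar polarity gene Vangl2 differed by 0.55 (SE 0.16; limma, adjusted p = 0.123). Stk10 and Msn are expressed strongly in leukocytes too, and the part of leukocytes in these values was not tested. Signals of 15 lymphocyte markers, without the log and relative to the percentile of each array, were summed. The sum was 14.1 to 30.6 in null samples, against 43.8 to 74.4 in wild-type samples. Over 9 myeloid markers the sum was 138 to 161.9 in null samples and 139.6 to 195.7 in wild-type samples, and the groups overlapped. Bright probes weigh most in such a sum. In bulk samples, fewer cells of a type and less RNA per cell cannot be told apart.

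Of 22 spindle pole and astral microtubule genes, 20 were tested, 14 positive and 6 negative, with a median of 0.43, and 0 passed the threshold (limma). The median was 0.20 without null sample 2. At an unadjusted p under 0.05 there were 7 higher and 3 lower, which is 10 of 20 against 22.7% of all entries. Of these 7, the kinesin gene Kif18b was well above background on 3 null arrays and 0 wild-type arrays, so it passed the filter through null samples alone; it is named after its values were seen. Ccnb1, the mitotic cyclin gene, differed by 2.59 (SE 0.58; limma, adjusted p = 0.0859), Tpx2, the activator of Aurora A on the spindle, by 2.06 (SE 0.48; adjusted p = 0.0897) and the spindle pole gene Aspm by 2.18 (SE 0.51; adjusted p = 0.0902). Mapre2, of the end-binding family that tracks microtubule tips, differed by -0.96 (SE 0.24; limma, adjusted p = 0.0966).

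Of 20 genes of mitosis at large, 18 were tested and all 18 were positive, against 52.4% of all entries, with a median of 2.10. At an unadjusted p under 0.05 there were 17 higher and 0 lower, against 13.1% of all entries higher, and 0 passed the threshold (limma). The list was chosen with earlier results of these data known. The difference was 2.56 (SE 0.47) for Bub1, a kinase of the spindle checkpoint, and 2.55 (SE 0.50) for the kinase gene Melk. Values were 2.39 (SE 0.46) for the spindle gene Nusap1 and 2.33 (SE 0.46) for Birc5, encoding survivin. Taken as levels minus each gene's wild-type mean, the list had medians of 1.51, 3.22 and 1.67 in null samples 1, 2 and 3, against 0.34, -0.29 and -0.086 in wild-type samples 1, 2 and 3. Null sample 2 was thus highest in both this median and Gpsm2, and the part of cell division in the Gpsm2 value was not tested. Signals were also summed over the list without taking the log, each relative to the percentile of its array. This sum was 55.3 to 171.6 in null samples and 15.9 to 25.4 in wild-type samples. Bright probes weigh most in such a sum. For the 10 spindle orientation genes, the median of level minus wild-type mean was -0.055, -0.099 and 0.029 in null samples 1, 2 and 3. It was 0.012, -0.013 and 0.048 in wild-type samples 1, 2 and 3.

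**Figure D5:**
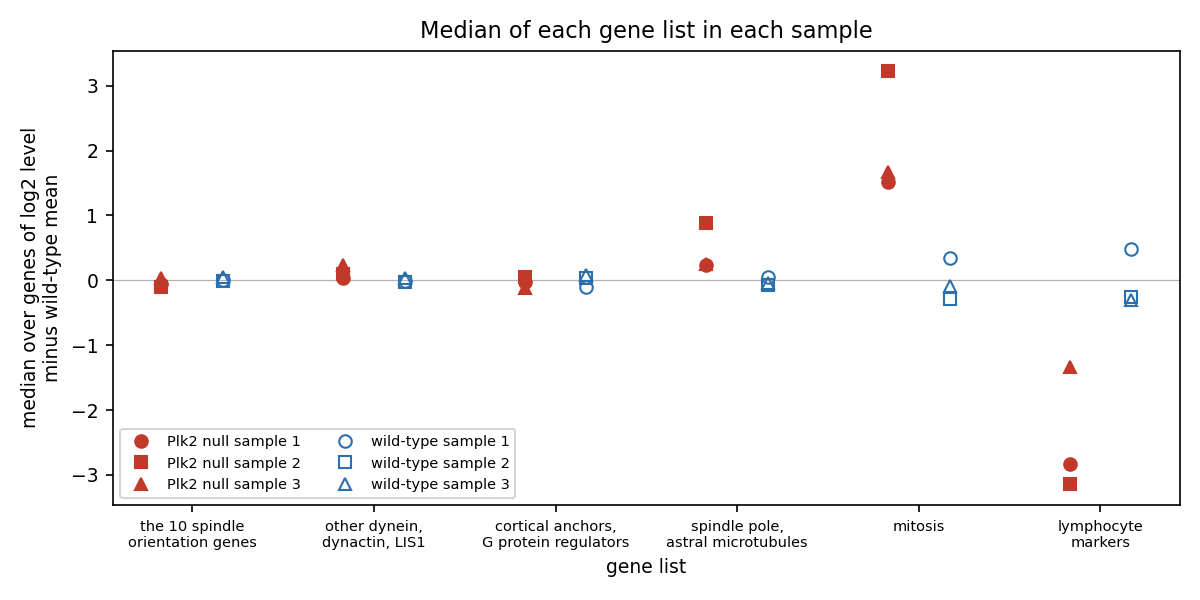
Median over the tested genes of each list of the log2 level minus the gene's wild-type mean (y axis), Plk2 null samples as filled symbols on the left and wild-type samples as open symbols on the right. The medians of the 10 spindle orientation genes lie between -0.099 and 0.048 in all 6 samples, while those of the mitosis genes reach 3.22 and those of the lymphocyte markers -3.14 in null sample 2.

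Epithelial markers were present on all arrays: 10 luminal markers had a median difference of -0.0060, with 5 positive and 5 negative. The 10 basal markers had a median of 0.51, with 9 positive and 1 negative, where 52.4% of all entries were positive. Among the luminal markers, the alveolar regulator gene Elf5 differed by 1.70 (SE 0.29; limma, adjusted p = 0.0565; called without null sample 3). Esr1, which encodes an oestrogen receptor, had a difference of -0.92 (SE 0.27; limma, adjusted p = 0.125). The basal median was 0.30 without wild-type sample 1. Other cell types were represented too. All 15 lymphocyte markers had a negative difference, with a median of -2.48. All 15 had an unadjusted p under 0.05, against 9.64% of all entries lower at that p, and 0 passed the threshold (limma). Medians were -0.54 for fibroblast, -0.47 for endothelial, -0.78 for Schwann cell, -0.27 for myeloid and 0.23 for adipocyte markers. Without null sample 2 they were -0.26 for endothelial, -0.50 for Schwann cell and -0.020 for myeloid markers, and the myeloid median was -0.58 without wild-type sample 3, -0.48 without null sample 3 and -0.11 without wild-type sample 1. The Schwann cell list held Sox10 at 0.78, and Foxd3, which passed the filter through wild-type arrays alone. On the null arrays 11 of the 15 lymphocyte markers were well above background in all 3 samples. The part of these cells in the values of Gnai2, a G protein subunit also abundant in leukocytes, was not tested. The lymphocyte median was -2.83, -3.14 and -1.34 in null samples 1, 2 and 3. Gnai2 differed by -0.26 with all samples, and by -0.30 to -0.23 with any 1 sample left out.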

How the data were processed

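Per the file headers, the 6 arrays had Agilent design 028005 (annotated on mm9), and Feature Extraction 11.0.1.1 quantified the spots. Each spot's processed signal is a linear intensity from which the software had removed background, per the file headers, with no normalization between arrays. In the authors' deposited table of spots, intensities share 1 distribution over the arrays. The authors added to it an unadjusted p-value, a ratio with wild type as numerator and a signed fold with null as numerator, taken here as a score. How the table was made is not stated.

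Log2 signals were centred on the 75th percentile of gene spots on each array, without control spots. Spots of a probe were then averaged, leaving out 1119 spot values marked as outliers. Probes were named through their accession in a RefSeq table (GRCm38.p6); 26582 of 55681 matched. Probes well above background (most of their spots) on at least 3 arrays were kept, and the brightest probe of each gene was used. A kept probe without a matched gene stood as its own entry. This left 24611 entries, 14416 named genes and 10195 unmatched probes, so shares of all entries are not shares of genes alone. Null minus wild type was tested with lmFit and eBayes (limma 3.58.1, R 4.3.3), Benjamini-Hochberg adjusted, threshold 0.05. The steps were tested on simulated arrays. Genes, lists and tests were chosen with earlier results of these data known. The text names the 10 genes, Plk2, genes among the 4 of smallest p in each list and the 5 genes most correlated with Gpsm2. The motifs were chosen after the data were seen. In the main test, replicate numbers were not used to pair the samples. The 18 alternatives changed background correction, scaling, filter, probe choice, moderation, weights or a left-out sample.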

Additional observations from a re-analysis of the deposited data

How the results depend on the processing

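None of the 10 genes passed the threshold under any of the 18 alternatives (limma; lowest adjusted p 0.0611, for Gpsm2 with normexp background correction). The signs of Gpsm2, Gnai1, Gnai3 and Dync1h1 were the same in all 18. With spike-in scaling the sign turned for Gpsm1 (0.089), Numa1 (0.24), Insc (0.021), Gnai2 (0.030) and Pafah1b1 (0.18). That of Dctn1 turned to -0.062 with quantile normalization and to -0.088 with the authors' deposited values. Leaving out each sample in turn gave -0.10 to 0.095 for Dctn1, -0.66 to 0.085 for Insc and -0.11 to 0.024 for Numa1. The median of the 10 genes was -0.16 with quantile normalization and 0.21 with spike-in scaling, and -0.087 to -0.049 with a sample left out. Spike-in scaling changes only the value an array is centred on, so it moves the differences of all 10 genes by the same amount. The cause of the other shifts was not tested.

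Counts over all entries depended on the setting. Against 136 entries called (54 higher, 82 lower), there were 1204 with normexp, 340 with median centring (176 and 164), 337 with spike-in scaling (216 and 121), 31 without the filter, 382 with all 6 arrays above background, 831 with trend and robust moderation, 1250 with array weights and 755 with the deposited values. Leaving out a sample gave 7 to 735, above 136 without null sample 3 and below it without any of the other 5. Deviations of same-numbered samples were no more alike (r = -0.12, 0.038 and -0.018) than those of other pairs (r from -0.17 to 0.21). These values cannot exclude a pairing. The replicate number was also the slide column of the array. A replicate block gave 8 entries, with Gpsm2 at an adjusted p of 0.184 (limma). Of the 171 tested genes in the other lists, 8 were called with spike-in scaling, against 337 of 24611 entries. With a sample left out, 0 to 12 were called. The count of 12 came without null sample 3 (10 of them lymphocyte markers), against 735 of 24611 entries. These lists were chosen with earlier results of these data known.

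List medians turned sign with spike-in scaling for the cortical anchors (0.25), myeloid (0.018) and luminal markers (0.28). With a sample left out they ran from -0.094 to 0.012 for the cortical anchors, -0.14 to 0.32 for adipocyte and -0.068 to 0.079 for luminal markers. The 4 paralogue ratios kept their signs under the 8 alternatives run for them (normexp, the deposited values and each sample left out). With 3 arrays a group, the number of arrays limits the precision, and the interval was widest for Insc. Keeping outlier-marked spots was added after the data were seen.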
